A study of Mus musculus with 8 samples.

Results

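The CDK inhibitors and the RB family were described here through 9 genes, Cdkn1b, Cdkn1c, Cdkn2a, Cdkn2b, Cdkn2c, Cdkn2d, Rb1, Rbl1 and Rbl2. Their members were the probe sets (groups of short probes for 1 transcript) that stand on both array types of the study and are annotated to a single one of these symbols. The 9 genes were all found, of 12394 genes so measured on both array types, through 12 of 20393 such probe sets. Cdkn1b, Rbl1 and Rbl2 had more than 1 of them, and 3 more probe sets of Rb1 and Rbl1 stand on the tumour array alone.

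p53 was deleted in the mice behind all 8 RNA samples, and their background was C57BL/6J. In the tumour part, 6 hepatocellular carcinomas (HCC) of mice carrying an HBs (hepatitis B surface antigen) transgene, aged 12 to 15 months, were hybridised 1 tumour per array, 3 from mTERC- mice, which lack the RNA component of telomerase, and 3 from mTERC+ mice, which have it. In the liver part, 1 array carried RNA pooled from 3 mice infected for 48 hours with an adenovirus for TRF2DBDM, a truncated TRF2 (a telomere-binding protein), and 1 array carried RNA pooled from 3 mice infected with an adenovirus for GFP. Which promoters drive the transgene and the viral inserts was not stated in the labels. The tissue label of each sample is hepatocytes. The summed signal of 6 hepatocyte markers (Alb, Ttr, Apoa1, Apoa2, Fgb and Apob) was 150039 to 239032 in the tumours. It was 52362 in the TRF2DBDM liver pool and 41561 in the GFP liver pool. The tumour and liver arrays were scaled separately, and Apob was read from a different probe set in each. The tumour sums therefore cannot be compared with the liver sums.

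Progress from G1 to S phase depends on cyclin-dependent kinases (CDKs) that phosphorylate the RB family, a set of pocket proteins which otherwise hold E2F transcription factors in check. CIP/KIP proteins (Cdkn1b encodes p27 and Cdkn1c encodes p57) bind cyclin-CDK complexes broadly, and INK4 proteins (Cdkn2a, Cdkn2b, Cdkn2c and Cdkn2d) bind CDK4 and CDK6. In adult liver most hepatocytes rest outside the cycle, and loss of this brake is a common event in liver cancer.

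The values are MAS5 signals, a brightness per probe set on a linear scale, which the authors scaled to the same trimmed mean on each array. The median signal was 54.5 to 75.1 on the tumour arrays and 46.1 to 52.5 on the liver arrays, and a member below its array median is called dim here. The array of mTERC- tumour 2 stood apart, with a ratio of 13.8 between the 3' and 5' control probe sets of Gapdh, against 0.983 to 1.18 on the remaining 5. Its mean correlation with the other tumours was 0.788, against 0.835 to 0.847 for the others. It gave the highest of the 6 values for 5 of the 12 members, and for 27.2% of all probe sets with 1 symbol.

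The first comparison asked whether these brakes on the cycle differed between tumours that arose without and with telomerase RNA. No member was called as different between the groups. In limma, 0 of the 12 probe sets had an adjusted p below 0.05, against 0.00858% of the 34958 probe sets tested, and 0 had an unadjusted p below 0.05, against 4.63% of all. The mTERC- and mTERC+ tumours overlapped for 11 of the 12. For 1, a probe set of Rb1, the mTERC- tumours were all lower, as for 4.41% of all probe sets, and for 0 they were all higher, against 5.71% of all. The median log2 difference of the 12 was 0.04, against 0.03 over all probe sets tested, with 7 higher and 5 lower in the mTERC- mean. All of the 95% intervals of the members contained 0, and most reached beyond a 2-fold difference, so the absence of a call does not show equal levels.

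**Figure D1:**
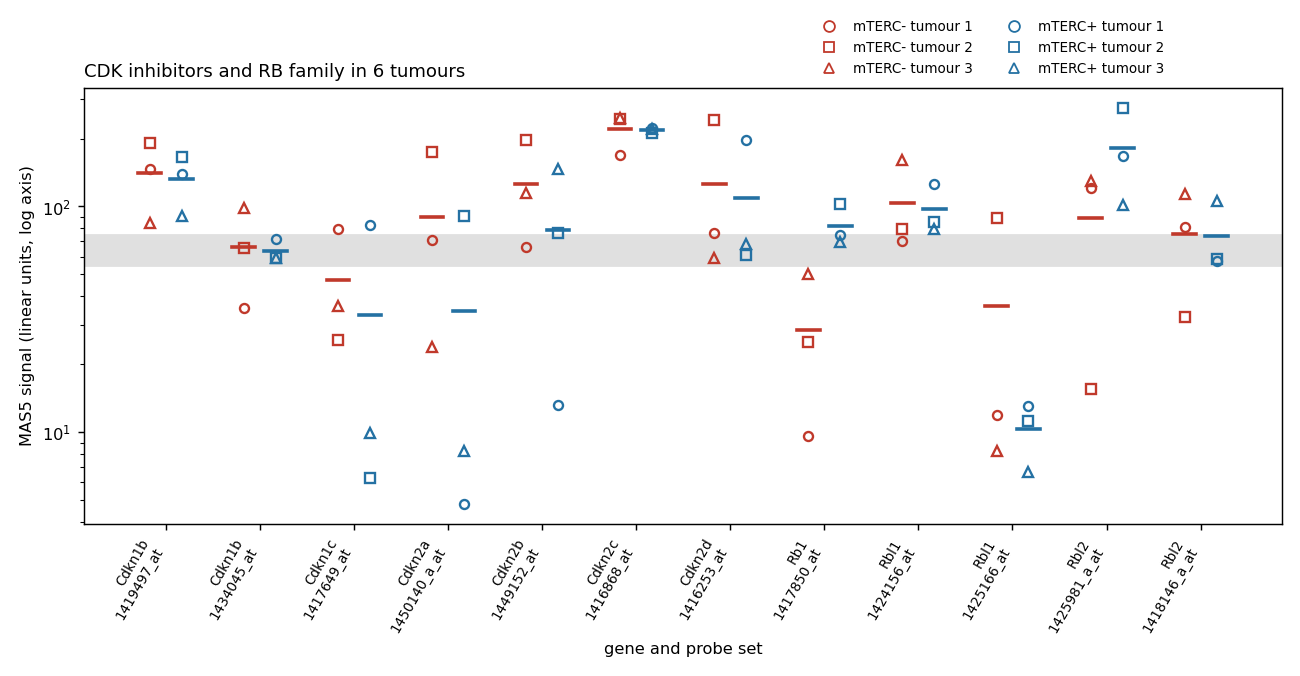
Signal of the 12 probe sets of the CDK inhibitors and the RB family in each tumour, on a log axis. Red marks are mTERC- tumours and blue marks mTERC+ tumours, with a symbol per tumour, bars are group means (n = 3 each), and the grey band spans the array medians of 54.5 to 75.1. Red and blue marks overlap for each probe set except Rb1 1417850_at, where the mTERC- tumours lie between 9.6 and 50.1 and the mTERC+ tumours between 69.5 and 102.9.

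Among the CIP/KIP genes, Cdkn1b (Entrez Gene 12576) encodes p27, which holds CDK2 complexes inactive in resting cells. Its brighter probe set, 1419497_at, had signals of 146.9, 190.4 and 84.5 in mTERC- tumours 1, 2 and 3, against 139.7, 166.3 and 90.5 in mTERC+ tumours 1, 2 and 3. mTERC- tumour 2 was the highest and mTERC- tumour 3 the lowest, and the mTERC+ values all lay between them. The means were 140.6 ± 53.2 for mTERC- and 132 ± 38.5 for mTERC+ tumours (SD, n = 3 each), with a log2 difference of 0.05 (SE 0.48, limma adjusted p = 0.997). The other probe set, 1434045_at, had 35.4, 65.8 and 98.1 in mTERC- tumours, against 72.1, 59.1 and 59.1 in mTERC+ tumours. Its mTERC- values lay on either side of the narrow mTERC+ range, and its order of tumours was not that of the first probe set.

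Cdkn1c (Entrez Gene 12577) encodes p57, an imprinted inhibitor that is expressed mainly in development. Its probe set had 79.6, 25.6 and 36.2 in mTERC- tumours, against 83.1, 6.3 and 9.9 in mTERC+ tumours. A single tumour of each group was above its array median and the others were dim, so the groups overlapped through mTERC+ tumour 1. The log2 difference was 0.42 (SE 0.57, 95% interval -0.76 to 1.59, limma adjusted p = 0.962), and with each tumour left out in turn it ran between 0.13 (without mTERC+ tumour 2) and 0.92 (without mTERC+ tumour 1).

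Among the INK4 genes, Cdkn2a and Cdkn2b spread widely between single tumours. Cdkn2a (Entrez Gene 12578) gives rise to p16Ink4a, a CDK4 and CDK6 inhibitor, and, through another start and reading frame, to p19Arf, which acts on p53 by way of Mdm2. The files do not say which of these transcripts the probe set reads. The RefSeq promoter table (build GRCm38.p6, 250 bases before to 50 after each start) matched 7 of the 9 genes with 9 windows. The 2 starts of Cdkn2a are shown because its array value cannot be assigned to either. The upstream window lies at chr4:89294570-89294869 on the minus strand, where the p19Arf first exon precedes that of p16Ink4a, and the downstream window lies at chr4:89282143-89282442 on the same strand. Capitals mark an E2F word, any of TTTCCCGC, TTTGGCGC, TTTCGCGC and TTTGCCGC searched on both strands.
Cdkn2a upstream start: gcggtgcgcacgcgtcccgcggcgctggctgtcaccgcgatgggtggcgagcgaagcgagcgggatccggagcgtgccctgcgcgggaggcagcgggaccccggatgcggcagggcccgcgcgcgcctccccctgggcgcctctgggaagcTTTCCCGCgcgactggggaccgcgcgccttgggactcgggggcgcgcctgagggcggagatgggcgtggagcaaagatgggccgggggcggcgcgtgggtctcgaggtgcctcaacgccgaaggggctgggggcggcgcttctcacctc
Cdkn2a downstream start: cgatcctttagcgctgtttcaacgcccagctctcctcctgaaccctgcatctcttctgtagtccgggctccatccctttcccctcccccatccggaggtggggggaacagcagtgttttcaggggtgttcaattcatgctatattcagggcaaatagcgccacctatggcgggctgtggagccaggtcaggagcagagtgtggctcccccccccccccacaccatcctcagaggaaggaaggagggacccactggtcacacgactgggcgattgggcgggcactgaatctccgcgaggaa

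The upstream window had 1 such word, at position -99 from the start, and a GC content of 77.0%. The downstream window had none and a GC content of 60.3%. Over all 32851 promoter windows 2.26% held an E2F word, and 2 of the 9 windows of these genes did. The words TTTGAA and TTCGAA, called CHR elements and found in promoters bound by the pocket proteins with MuvB, did not overlap the E2F words in these windows. A CHR word stood in 2 of the 9 windows, those of Cdkn2b and Rbl2, against 19.2% of all windows. These matches describe letters in the windows and not binding.

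Cdkn2a had signals of 71.4, 173.6 and 23.9 in mTERC- tumours, against 4.8, 90.5 and 8.3 in mTERC+ tumours. It was above the array median in mTERC- tumours 1 and 2 and mTERC+ tumour 2 and dim in the other 3, and the groups overlapped through mTERC+ tumour 2. The highest signal was 7.26 times the lowest within the mTERC- group and 18.9 times within the mTERC+ group. The log2 difference was 0.90 (SE 0.66, 95% interval -0.45 to 2.25, limma adjusted p = 0.951). Without mTERC- tumour 2, the array with the high Gapdh ratio, it was 0.42, and without mTERC+ tumour 2 it was 1.46 (adjusted p = 0.979 in limma).

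Cdkn2b (Entrez Gene 12579), next to Cdkn2a on the chromosome, encodes p15Ink4b, an inhibitor induced by TGF-beta in many epithelial cells. It had 66.1, 196.8 and 114.9 in mTERC- tumours, against 13.2, 76.4 and 146.6 in mTERC+ tumours. mTERC- tumour 2 was again the highest, and mTERC+ tumour 1, which was also the lowest for Cdkn2a, was the only dim value. Cdkn2b had a log2 difference of 0.64 (SE 0.60, 95% interval -0.60 to 1.87, limma adjusted p = 0.953). Leaving out mTERC- tumour 2 gave 0.33. With mTERC+ tumour 1 left out it was 0.10, and with mTERC+ tumour 3 left out 1.09. Of the genes that flank the pair, Mtap, a methionine salvage enzyme, had 553.8, 409.6 and 704.5 in mTERC- tumours, against 390.3, 418.4 and 346.5 in mTERC+ tumours. Mtap was above the array median in each tumour and the groups overlapped, and its log2 difference was 0.47 (SE 0.34, limma adjusted p = 0.951).

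Cdkn2c (Entrez Gene 12580), which encodes p18Ink4c, was the steadiest member. Its signals were 169.4, 243.6 and 247.2 in mTERC- tumours, against 223.8, 210.9 and 220.8 in mTERC+ tumours. All 6 were above the array median, and the mTERC+ tumours, which differed by a factor of 1.06, lay inside the mTERC- range. The log2 difference was -0.01 (SE 0.40, 95% interval -0.82 to 0.81, limma adjusted p = 1.00). Cdkn2d (Entrez Gene 12581), which encodes p19Ink4d, had 76.0, 241.8 and 59.3 in mTERC- tumours, against 196.6, 61.2 and 68.3 in mTERC+ tumours. A single tumour in each group, mTERC- tumour 2 and mTERC+ tumour 1, stood well above the other 4, which lay between 59.3 and 76.0. The log2 difference was 0.11 (SE 0.57, limma adjusted p = 0.993), and without mTERC- tumour 2 it was -0.38.

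Of the pocket proteins, Rb1 (Entrez Gene 19645) encodes RB, the main target of CDK4 and CDK6 and a repressor of E2F1 to E2F3. Its probe set 1417850_at had signals of 9.6, 25.0 and 50.1 in mTERC- tumours, against 74.7, 102.9 and 69.5 in mTERC+ tumours. Each mTERC- tumour was below its array median and each mTERC+ tumour above it, with no overlap. The means were 28.2 ± 20.4 for mTERC- and 82.4 ± 18.0 for mTERC+ tumours (SD, n = 3 each). Rb1 thus had a log2 difference of -0.97 (SE 0.60, 95% interval -2.20 to 0.27, limma adjusted p = 0.951) and did not pass. It stayed between -1.22 and -0.73 with each tumour left out in turn, and was -0.96 without mTERC- tumour 2.

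A second Rb1 probe set, 1444400_at, which stands on the tumour array alone and is not a member, had 5.9, 130.9 and 8.7 in mTERC- tumours, against 4.8, 44.6 and 4.7 in mTERC+ tumours. It was dim in 5 of the tumours, all but mTERC- tumour 2, the array with the high Gapdh ratio. Its log2 difference was 0.43 (SE 0.51, limma adjusted p = 0.962), so the estimates of the Rb1 probe sets differed in sign. The other mTERC- values of 1444400_at, 5.9 and 8.7, lay inside its mTERC+ range. Its difference without mTERC- tumour 2 is not given here, so the disagreement may rest on that array. With the mean of both probe sets the log2 difference of Rb1 was -0.27. The summed signal of 8 endothelial markers was 838.5 to 1197 in mTERC- tumours and 1453 to 1999 in mTERC+ tumours, so the sums did not overlap. All 8 had a lower mean in mTERC- tumours, but the tumours themselves were apart for 2 of the 8 and 0 passed an adjusted p of 0.05 in limma. The 10 macrophage markers also all had a lower mean in mTERC- tumours, with sums of 10278 to 17116 in mTERC- and 11482 to 53534 in mTERC+ tumours. All 9 neutrophil markers had a higher mean in mTERC- tumours, with sums of 9174 to 22022 in mTERC- and 405.0 to 3097 in mTERC+ tumours. The tumours were apart for 3 of the 9, and 2, S100a8 and S100a9, passed an adjusted p of 0.05 in limma. Those 2 had the largest signals of the 9 in each mTERC- tumour, while Elane had a log2 difference of 0.11 (SE 0.67). The part of these cells in the Rb1 values was not tested, and in such bulk RNA fewer cells of a type and less RNA per cell cannot be told apart.

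Rbl1 (Entrez Gene 19650) encodes p107, a pocket protein that rises in cycling cells as an E2F target. Its RefSeq promoter window is shown for the E2F word in capitals at position -18. It lies at chr2:157204485-157204784 on the minus strand (GRCm38.p6).
Rbl1: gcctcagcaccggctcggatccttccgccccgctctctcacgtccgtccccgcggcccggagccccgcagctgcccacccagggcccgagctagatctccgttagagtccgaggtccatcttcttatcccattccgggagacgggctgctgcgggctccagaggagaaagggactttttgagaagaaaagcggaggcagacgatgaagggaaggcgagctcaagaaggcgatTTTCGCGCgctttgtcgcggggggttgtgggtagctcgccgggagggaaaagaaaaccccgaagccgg

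Rbl1 probe set 1424156_at had 70.4, 79.6 and 160.9 in mTERC- tumours, against 126.2, 85.7 and 79.4 in mTERC+ tumours. All 6 were above the array median, mTERC- tumour 3 was the highest and the groups overlapped, with a log2 difference of 0.03 (SE 0.53, limma adjusted p = 1.00). Probe set 1425166_at had 11.9, 88.8 and 8.3 in mTERC- tumours, against 13.1, 11.2 and 6.7 in mTERC+ tumours. It was dim in each tumour but mTERC- tumour 2, which alone set its log2 difference of 0.50 (SE 0.40, limma adjusted p = 0.951). Without that tumour it was -0.01. Of the other 2 Rbl1 probe sets, on the tumour array alone, 1432604_at had 133.8, 138.4 and 77.0 in mTERC- tumours, against 74.0, 12.1 and 38.0 in mTERC+ tumours. The mTERC- tumours were all higher there, with a log2 difference of 1.08 (SE 0.60, limma adjusted p = 0.951) that did not pass, so the Rbl1 probe sets did not give 1 picture.

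Rbl2 (Entrez Gene 19651) encodes p130, the pocket protein of resting cells, which binds E2F4 and MuvB in the DREAM complex. Its brighter probe set, 1425981_a_at, had 120.9, 15.5 and 129.4 in mTERC- tumours, against 166.7, 274.4 and 101.4 in mTERC+ tumours. It was lowest in mTERC- tumour 2 and highest in mTERC+ tumour 2, and the groups overlapped through mTERC+ tumour 3. For this probe set the log2 difference was -0.93 (SE 0.56, 95% interval -2.07 to 0.21, limma adjusted p = 0.951), and -0.36 without mTERC- tumour 2. Probe set 1418146_a_at had 80.8, 32.5 and 113.6 in mTERC- tumours, against 57.3, 58.6 and 105.3 in mTERC+ tumours. It too was lowest in mTERC- tumour 2, but its log2 difference was -0.02 (SE 0.59, limma adjusted p = 1.00).

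**Figure D2:**
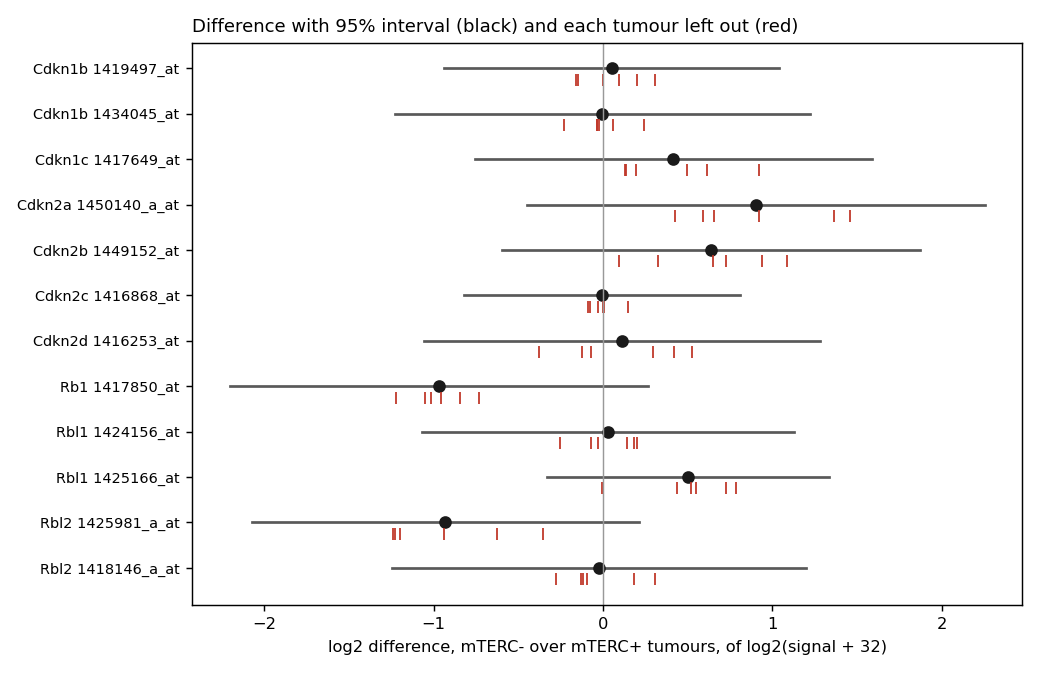
Log2 difference of mTERC- over mTERC+ tumours for the 12 probe sets, on the log2(signal + 32) scale. Black points are the estimates of the fit on 6 tumours, black lines their 95% intervals, and red ticks the estimates with each tumour left out in turn. Each interval contains 0, and the ticks stay on the estimate's side of 0 for Cdkn1c, Cdkn2a, Cdkn2b, Rb1 1417850_at and Rbl2 1425981_a_at.

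The genes around these brakes were read from 10 lists. Of 92 listed genes, 88 had a probe set with 1 symbol. In the tumours 0 of the 88 had an adjusted p below 0.05 in limma, and 3 had an unadjusted p below 0.05, which were Cks1b, Tbx2 and Ascl2, against 4.63% of all probe sets. The groups were apart for 4 genes with mTERC- higher and 3 with mTERC- lower, against 5.71% and 4.41% of all, and the median log2 difference was 0.08. Cks1b, the cofactor by which the SKP2 ubiquitin ligase recognises p27, had signals of 543.2, 454.0 and 507.1 in mTERC- tumours, against 274.3, 240.7 and 198.7 in mTERC+ tumours. All mTERC- tumours were higher, with a log2 difference of 0.99 (SE 0.35, limma adjusted p = 0.951). Of the 8 genes of p27 turnover 4 were higher and 4 lower, with a median of 0.00.

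The 12 cyclins and CDKs had 7 higher and 5 lower means in mTERC- tumours, with a median log2 difference of 0.17. Ccnd3, a D-type cyclin that activates CDK4 and CDK6, had a log2 difference of 0.71 (SE 0.36) and Ccne1, the partner of CDK2, of 0.81 (SE 0.43). The 10 E2F and DP factors had a median of 0.30, with E2f6, a repressor of the family, at 0.95 (SE 0.52). The 17 measured E2F targets of S phase had 12 higher and 5 lower means, with a median of 0.28. Rrm2, a ribonucleotide reductase subunit, was higher in all mTERC- tumours, at 304.9, 349.3 and 626.1, against 275.6, 297.4 and 166.1 in mTERC+ tumours. Of 9 mitosis genes 8 also had a higher mean in mTERC- tumours, with sums of 1136 to 2223 in mTERC- and 362.1 to 1318 in mTERC+ tumours, and how far cycling cells enter the list values was not tested. Tyms, thymidylate synthase, had a log2 difference of -0.92 (SE 0.50), but it was dim in all mTERC- tumours and in mTERC+ tumour 2. The MuvB and B-Myb list had a median of -0.16 over 6 genes, and Lin37, a MuvB subunit, had a log2 difference of 0.84 (SE 0.41). The 7 measured RB corepressors had a median of -0.07, with Smarca2, a chromatin remodelling ATPase, at -0.91 (SE 0.47).

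Of the 18 Polycomb and other regulators of Cdkn2a 10 were higher and 8 lower, with a median of 0.06. Tbx2, a repressor of Cdkn2a, had 65.2, 92.6 and 4.0 in mTERC- tumours, against 5.5, 9.7 and 5.9 in mTERC+ tumours. The 7 measured imprinted neighbours of Cdkn1c had a median of 0.05. Ascl2, a transcription factor of the placenta, had 4.5, 10.4 and 7.6 in mTERC- tumours, against 64.3, 103.0 and 40.1 in mTERC+ tumours. It was dim in all mTERC- tumours and in mTERC+ tumour 3, with a log2 difference of -1.31 (SE 0.50). Igf2, a fetal growth factor, was bright in each tumour, at 13138 to 24035 in mTERC- and 9828 to 21001 in mTERC+ tumours. Cdkn1a, the third CIP/KIP gene, had 356.6, 1048 and 371.2 in mTERC- tumours, against 882.3, 282.9 and 169.8 in mTERC+ tumours. Like Cdkn2d it was highest in mTERC- tumour 2 and mTERC+ tumour 1, and its log2 difference was 0.51 (SE 0.46, limma adjusted p = 0.953).

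**Figure D3:**
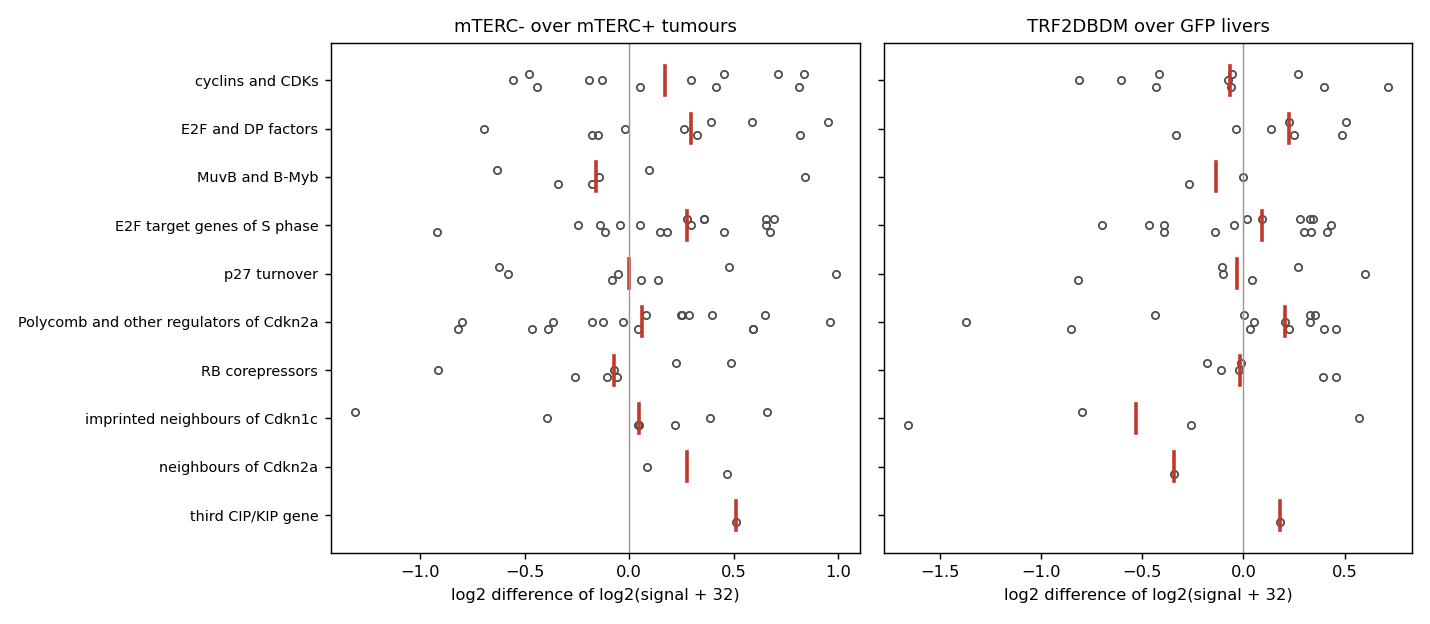
Log2 differences of the listed genes around the CDK inhibitors and the RB family, mTERC- over mTERC+ tumours on the left and TRF2DBDM over GFP livers on the right. A circle is a gene, a red bar the list median, and the right panel holds the genes that were not dim on both liver arrays. Circles lie on both sides of 0 in most lists, with Phlda2 at -1.66 and Ring1 at -1.37 farthest from 0 in the livers.

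Likeness to other genes was described by Pearson's r of log2 levels over the 6 tumours, among 19498 probe sets at or above the median level. For Rb1 the closest were Fermt2 (r = 0.998) and Pmm1 (r = 0.996), for Rbl2 Cyld (r = 0.995) and Slc40a1 (r = 0.994), and for Rbl1 Lrpprc (r = 1.00) and Depdc7 (r = 0.987). For Cdkn2b they were Mgat4b (r = 1.00) and Pikfyve (r = 0.994), and for Cdkn2c Dlat (r = 0.998) and Btf3l4 (r = 0.996). Cdkn1b was closest to Pigm (r = 0.998) and Med25 (r = 0.996), and Cdkn2d to Slc35c1 (r = 0.995) and Tagln2 (r = 0.991). The 6 points share the scaling and quality of their arrays, and the highest values of so many over 6 tumours are a description only.

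The second comparison asked what the same genes showed in p53-null liver 48 hours after TRF2DBDM, against GFP. It rests on 1 array per group, so no test or error can be given and the values describe these 2 pools. Of the 12 members, 5 were not dim on 1 array or both and were compared. At least 2-fold higher in the TRF2DBDM pool was 1 of the 5, Cdkn1c, against 4.11% of the 11387 probe sets compared, and 0 were at least 2-fold lower, against 3.18%. Over all probe sets compared this was 468 higher and 362 lower, and 364 higher and 530 lower with median centring. Cdkn1b 1434045_at and Cdkn2b were compared through the TRF2DBDM array alone, where they were the higher.

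Cdkn1c had a signal of 318.6 in the TRF2DBDM pool and 82.7 in the GFP pool. Both were above the array median, and the log2 ratio of 1.61, or 3.06-fold on the scale of signal plus 32, was higher than that of 98.9% of the probe sets compared. Of its imprinted neighbours, Phlda2, a growth restrainer of the placenta, had 16.6 in the TRF2DBDM pool and 121.5 in the GFP pool, and was compared through the GFP array alone. Slc22a18, a transporter gene, had 720.6 in the TRF2DBDM pool and 473.9 in the GFP pool, and Igf2, also compared through the GFP array alone, had 17.9 in the TRF2DBDM pool and 54.8 in the GFP pool. Other cell markers differed as well between the pools. Of 7 stellate and fibroblast markers compared all 7 were higher in the TRF2DBDM pool, with 0 of them 2-fold and a median log2 ratio of 0.25. Their summed signal over 8 genes was 1817 in the TRF2DBDM and 1467 in the GFP pool. All 6 hepatocyte markers were higher too, with 0 of them 2-fold and a median log2 ratio of 0.32. Of 7 endothelial markers 6 were higher with 0 of them 2-fold, with a median log2 ratio of 0.17. Of 8 macrophage markers 6 were higher and 2 lower, with a median log2 ratio of 0.94. A 2-fold difference was reached by 4 of them upward and 1 downward. Neutrophil markers went the other way, with 2 higher and 5 lower of 7, 0 of them 2-fold, and a median log2 ratio of -0.66. The part of these cells in the Cdkn1c value was not tested.

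Of the INK4 genes, Cdkn2b, Cdkn2c and Cdkn2d were compared, and each differed less between the pools than Cdkn1c. Cdkn2c was the brightest member signal on the GFP array, at 511.3 in the TRF2DBDM pool and 621.2 in the GFP pool, a log2 ratio of -0.27. Cdkn2d had 110.2 in the TRF2DBDM pool and 196.3 in the GFP pool, a log2 ratio of -0.68, which was above that of 8.51% of the probe sets compared. Cdkn2b had 66.0 in the TRF2DBDM pool and 36.2 in the GFP pool, a log2 ratio of 0.52. Cdkn2a was dim on both arrays, at 16.1 in the TRF2DBDM pool and 3.7 in the GFP pool, and was not compared.

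Cdkn1b 1434045_at had 63.1 in the TRF2DBDM pool and 42.7 in the GFP pool. Cdkn1b 1419497_at was dim on both arrays, at 12.0 in the TRF2DBDM pool and 38.7 in the GFP pool, and was not compared. All pocket protein probe sets were dim on both arrays. Rb1 had 6.6 in the TRF2DBDM pool and 19.1 in the GFP pool. The Rbl1 probe sets had 38.0 and 29.7 in the TRF2DBDM pool, against 38.8 and 19.4 in the GFP pool, and the Rbl2 probe sets had 37.5 and 21.0 in the TRF2DBDM pool, against 24.1 and 19.5 in the GFP pool. For these no ratio is given.

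Of the listed genes around them, 65 were compared in the livers, and their median log2 ratio was 0.02. None reached 2-fold higher signal in the TRF2DBDM pool (0 of 65), and 2 reached 2-fold lower signal, against the 4.11% and 3.18% of all probe sets compared. The 2 were Phlda2 and Ring1, a Polycomb subunit, at 17.5 in the TRF2DBDM pool and 96.1 in the GFP pool. Both were dim in the TRF2DBDM pool and compared through the GFP array alone. Cks1b had 900.7 in the TRF2DBDM pool and 1615 in the GFP pool, and Ccna2, the S phase cyclin, had 514.6 in the TRF2DBDM pool and 927.2 in the GFP pool. Ccne1 had 504.1 in the TRF2DBDM pool and 294.2 in the GFP pool. All 8 mitosis genes compared were lower in the TRF2DBDM pool, 1 of them at least 2-fold. The 15 S phase targets of E2F compared had 9 higher and 6 lower, with a median log2 ratio of 0.09. Cdkn1a was bright on both arrays, at 1727 in the TRF2DBDM pool and 1520 in the GFP pool.

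The last description set the tumours beside the livers. The array types were scaled separately, on different sets of probe sets, and array type, tissue and virus cannot be told apart, so no test was made. On the deposited scale 32.5% of the 20393 shared probe sets with 1 symbol were higher in all 6 tumours than in both livers and 2.28% were lower in all 6, and among the members these were 3 and 1 of 12. When the tumours were rescaled to the livers on the shared probe sets, by factors of 0.486 to 0.55, the shares were 11.5% and 13.7% and the members 1 and 2 of 12.

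On both scales all tumours were above both livers for Cdkn1b 1419497_at, with 42.4 to 104.7 in the rescaled tumours, against 12.0 and 38.7 in the livers, both dim. The other Cdkn1b probe set, 1434045_at, overlapped, with 17.2 to 49.2 in the rescaled tumours, against 63.1 and 42.7 in the livers. All tumours were below both livers on both scales for Cdkn2c, with 82.3 to 134 in the rescaled tumours, against 511.3 and 621.2 in the livers. Cdkn1c lay below both livers on the rescaled values alone, with 3.15 to 40.8 in the tumours, against 318.6 and 82.7 in the livers. Rbl1 1424156_at and Rbl2 1418146_a_at were above both livers in all tumours on the deposited scale alone. The other 7 member probe sets, with Cdkn1b 1434045_at among them, overlapped on both scales.

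**Figure D4:**
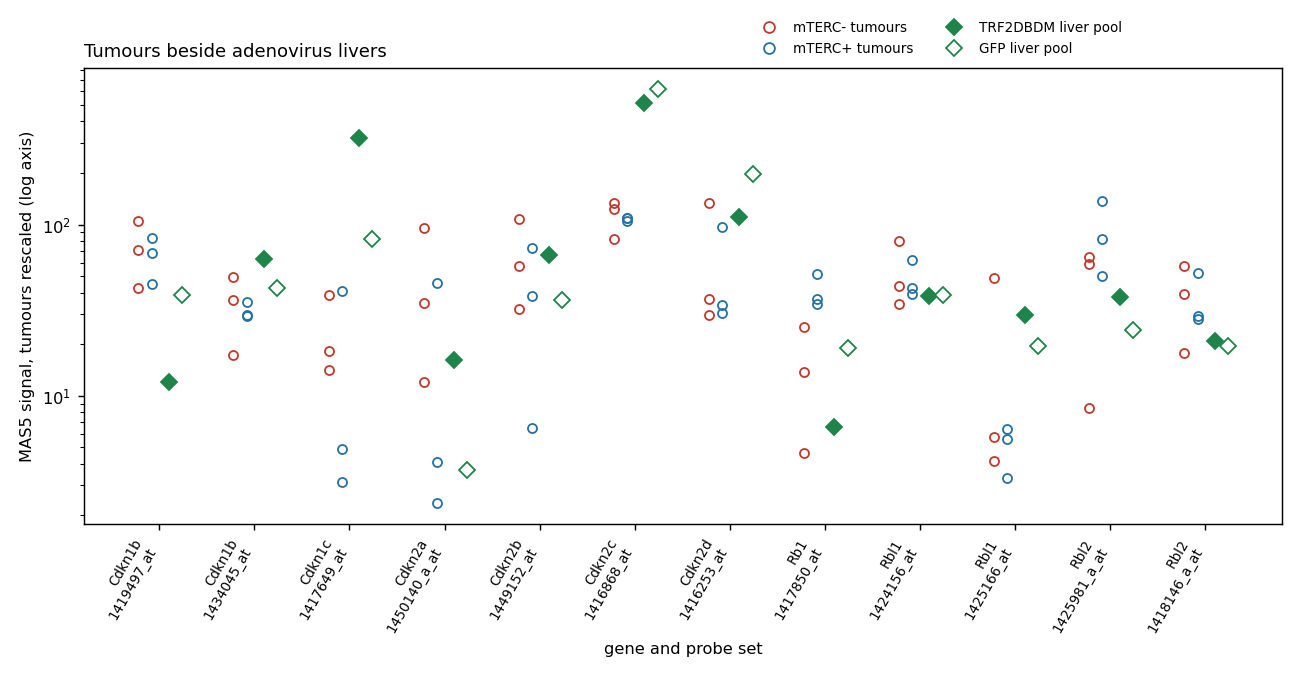
Signal of the 12 probe sets in the tumours, rescaled to the liver arrays on the shared probe sets, and in the livers as deposited, on a log axis. Red and blue circles are mTERC- and mTERC+ tumours, the filled diamond is the TRF2DBDM pool and the open diamond the GFP pool. Both diamonds lie above all circles for Cdkn1c and Cdkn2c, and below all circles for Cdkn1b 1419497_at.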

How the data were processed

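Total RNA of each sample, 6 microg per array according to the labels, was measured on Affymetrix arrays. The deposited values are MAS5 signals, a linear intensity per probe set, according to the submitters' processing notes, with no version given in the sources used here. The mean signal without the lowest and highest 2% was 150 on each array, and the scaling of the authors was kept. Names came from the platform annotation of the probe sets. Of the 45101 tumour probe sets 34958 had 1 symbol, and all of these were fitted, without a level filter so that dim members had a value. 9 of the 12 members were no dimmer than the middle probe set by mean level.

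Levels were log2 of signal plus 32, which understates the differences of dim probe sets. The tumour groups were tested in limma (version 3.58.1, R 4.3.3, variance trend, two-sided, Benjamini-Hochberg adjustment over the 34958). In the livers a ratio of 2 was counted among probe sets not dim on both arrays. Precision is limited by the number of arrays. Tumours were simulated on 34958 probe sets with independent normal noise, and folds were set on the scale of signal plus 32. Of these, 29 of 100 changed 4-fold and 60 of 100 changed 8-fold were called, with 1 unchanged probe set called. In a simulation where nothing had changed 0 were called. The changed probe sets were drawn from those above the median level, so the shares do not cover members below it.

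The members and lists were chosen with earlier results of these data known. All members are named. Listed genes were represented by their brightest probe set, and up to 3 per list were eligible by smallest p in the tumours or largest log2 ratio in the livers. The tumour values of Igf2 were added after its values were seen. Listed genes without a probe set of 1 symbol were not analysed here. Markers of T and NK cells, B cells, neutrophils, cholangiocytes and erythroid cells had median log2 differences of 0.12, -0.04, 1.58, 0.56 and -0.54 between mTERC- and mTERC+ tumours, and hepatocyte, mitosis and stellate and fibroblast markers of -0.20, 0.39 and -0.11. Other normalizations, pseudocounts, filters, summaries of probe sets, variance models and left-out tumours were tried, and their effect is given at the end.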

Additional observations from a re-analysis of the deposited data

How the results depend on the processing

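No paired analysis was possible because the labels give the tumours no shared numbers, and no call of a member was there to lose. Over 10 other settings and 6 fits with a tumour left out, 0 of the 12 members passed an adjusted p of 0.05 in limma, and the directions of Cdkn1c, Cdkn2a, Cdkn2b, Rb1 and the brighter Rbl2 probe set held where they could be fitted. Their sizes moved: with a pseudocount of 1, which widens the differences of dim probe sets, the log2 difference was 1.19 for Cdkn1c, 2.00 for Cdkn2a, 1.08 for Cdkn2b, -1.77 for Rb1 and -1.39 for Rbl2 1425981_a_at, and it was 1.01 for Rbl1 1425166_at. Cdkn1c was 0.14 without mTERC- tumour 1 and 0.19 without mTERC+ tumour 3. An unadjusted p below 0.05 was met by 1 member without a variance trend (Rb1) and by 0 or 1 with a tumour left out, Cdkn2a without mTERC+ tumour 2. The count of members with all mTERC- tumours lower was 0 with the mean of probe sets and 1 to 2 with a tumour left out, the added one being Rbl2 1425981_a_at without mTERC+ tumour 3. The count with all mTERC- tumours higher was 0 to 1, which was Cdkn2c without mTERC- tumour 1, Cdkn1c without mTERC+ tumour 1 and Cdkn2a without mTERC+ tumour 2. With the mean of probe sets the log2 difference was -0.27 for Rb1 and 0.55 for Rbl1.

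Differences near 0 turned sign. Cdkn1b 1419497_at was -0.0085 with median centring, -0.0788 with array weights and -0.16 to 0.31 with a tumour left out. Cdkn1b 1434045_at was 0.0299 on shared scaling, 0.0067 with a pseudocount of 64, 0.0138 with array weights and -0.23 to 0.24 with a tumour left out. Cdkn2c was 0.0345 on shared scaling and -0.0881 to 0.1475 with a tumour left out, and Cdkn2d -0.13 with array weights and -0.38 to 0.53. Rbl1 1424156_at was -0.0547 with quantile normalization, -0.03 with median centring and -0.25 to 0.20 with a tumour left out, and Rbl1 1425166_at -0.0063 to 0.7856. Rbl2 1418146_a_at was 0.0003 on shared scaling, 0.15 with array weights and -0.28 to 0.31 with a tumour left out. In the livers the Cdkn1c log2 ratio was 1.93 with a pseudocount of 1 and 1.38 with 64, and median centring lay between these. With a ratio of 1.5 counted, 1 member, Cdkn2d, was lower, as were 11.4% of all probe sets compared. Of the listed genes, 1 had an unadjusted p below 0.05 with the level filter and 2 to 9 with a tumour left out, against 3, and 0 passed adjustment. The number of probe sets at least 2-fold higher and lower in the livers was 932 and 722 with a pseudocount of 1, against 468 and 362. Median centring moved the median log2 ratio of all probe sets compared to -0.10, against 0.01. Dim signals and 3 tumours per group limit what could be called.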

Other observations

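The other Rbl1 probe set that stands on the tumour array alone, 1454293_at, had signals of 5.2, 118.8 and 91.8 in mTERC- tumours, against 28.1, 9.7 and 52.1 in mTERC+ tumours. It was above the array median in mTERC- tumours 2 and 3 and dim in the others, with a log2 difference of 0.57 (SE 0.63, limma adjusted p = 0.961).

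Cdkn1c and Cdkn2a, whose lowest signals were among the dimmest of the members, did not share their high mTERC+ tumours. Cdkn1c was highest in mTERC+ tumour 1, at 83.1, where Cdkn2a was at 4.8, and Cdkn2a was highest among mTERC+ tumours in tumour 2, at 90.5, where Cdkn1c was at 6.3. The highest signal was 13.2 times the lowest for Cdkn1c, 18.9 times for Cdkn2a and 11.1 times for Cdkn2b within the mTERC+ group, ratios that rest on dim lowest signals.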
